A study of Mus musculus with 6 samples.

Results

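Replication licensing was described in liver tumours of 6 mice through 10 genes, Mcm2, Mcm3, Mcm4, Mcm5, Mcm6, Mcm7, Pcna, Cdc6, Cdt1 and Gmnn. They were chosen by function, and every probe set carrying one of these symbols alone was taken, which gave 22 probe sets of the 22626 on the Affymetrix mouse array and 10 genes of the 12393 measured. Tumours of 3 Alb/AEG-1 mice were set against tumours of 3 wild-type mice. Alb/AEG-1 mice carry a transgene for astrocyte elevated gene-1, a scaffold protein that is overexpressed in many cancers, made by injecting a 5.3-kb fragment at 2 ng/µl into fertilised eggs of B6CBAF1/J parents. The transgene is named for albumin, whose promoter is active in hepatocytes. The labels do not spell out its promoter, its species or the number of founder lines. The endogenous mouse gene of the same product, Mtdh, had mean levels of 9.37 in Alb/AEG-1 and 9.17 in wild-type tumours by its brightest probe set (difference 0.20 ± 0.13 log2; limma, adjusted p = 0.677), and whether these probes bind the transgene's transcript is not stated, so they do not check the genotype. All 6 mice were males labelled with the CD-1 background, and all received the liver carcinogen N-nitrosodiethylamine once at 14 days of age, at 10 µg per g body weight, so the controls also bear carcinogen-induced tumours. Tumours were collected at 28 weeks, each array comes from its own numbered animal, and the labels do not say how many nodules went into a sample.

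Licensing prepares each origin of replication to fire once per cell cycle. In G1 phase the origin recognition complex recruits CDC6 and CDT1, which load the ring-shaped MCM helicase onto DNA, and in S phase kinases, CDC45 and GINS turn the loaded ring into the moving helicase. Geminin, the product of Gmnn, binds CDT1 after S phase has begun and prevents a repeated loading, and PCNA is the sliding clamp that holds polymerases on the template. Most adult hepatocytes are out of the cell cycle and express these genes weakly, and transcription factors of the E2F family switch them on when cells enter the cycle.

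E2F binding letters were looked for in the promoters, since the genes are known E2F targets. RefSeq promoter windows (assembly GRCm38.p6, 250 bases before to 50 bases after the start of transcription) were at hand for 8 of the 10 genes, in 9 windows. The letters searched on both strands were TTTCCCGC, TTTCGCGC, TTTGCCGC and TTTGGCGC, overlaps allowed. They were present in windows of 6 of the 8 genes, Mcm3, Mcm5, Mcm6, Mcm7, Cdc6 and Cdt1. Counted by window this was 6 of 9 (66.7%), beside 2.26% of all 32851 windows of the same length. CCAAT, the letters bound by NF-Y, were present in either strand in windows of 6 of the 8 genes. Counted by window this was 7 of 9 (77.8%), beside 37.4% of all windows. The bases before the start are shown for 3 genes because these had the smallest p-values by their main probe set, with E2F letters in capitals. The Mcm6 stretch lies at chr1:128359706-128359955 on the minus strand, the Mcm7 stretch at chr5:138171884-138172133 on the minus strand and the Mcm2 stretch at chr6:88898781-88899030 on the minus strand, each 5′ to 3′.
Mcm6: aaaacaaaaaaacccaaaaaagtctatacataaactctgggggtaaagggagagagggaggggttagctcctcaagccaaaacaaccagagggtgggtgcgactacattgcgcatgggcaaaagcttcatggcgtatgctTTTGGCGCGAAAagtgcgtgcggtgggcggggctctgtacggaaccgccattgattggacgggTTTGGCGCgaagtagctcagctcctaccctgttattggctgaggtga
Mcm7: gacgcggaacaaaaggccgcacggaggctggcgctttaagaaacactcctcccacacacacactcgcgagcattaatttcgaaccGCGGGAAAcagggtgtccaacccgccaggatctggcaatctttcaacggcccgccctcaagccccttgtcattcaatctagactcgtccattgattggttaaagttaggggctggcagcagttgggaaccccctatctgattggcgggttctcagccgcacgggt
Mcm2: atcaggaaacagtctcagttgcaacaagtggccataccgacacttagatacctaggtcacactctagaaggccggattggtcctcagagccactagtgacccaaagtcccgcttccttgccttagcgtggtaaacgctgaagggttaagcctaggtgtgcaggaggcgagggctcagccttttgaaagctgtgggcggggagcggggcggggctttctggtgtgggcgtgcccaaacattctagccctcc
Mcm6 had 3 matches, of which 1 begins 110 and 1 begins 47 bases before the start, while the other overlaps the more distant one on the opposite strand. The Mcm7 stretch had 1 match, beginning 165 bases before the start, and Mcm2 had none of these letters in its window. The window of the Mcm7 stretch held a further match after the start. Mcm7 is the gene with 2 windows, and the other, at chr5:138171217-138171516, had 0 matches. These are matches of letters only and no binding was measured.

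Every licensing gene was somewhat higher in Alb/AEG-1 tumours by its main probe set, the one with the highest mean over the 6 arrays, and the differences were small, from 0.11 log2 for Mcm3 to 0.51 log2 for Mcm6. Values are log2 expression levels, so 1 unit is a doubling. The median difference over the 10 genes was 0.17 log2, beside -0.01 over all 12393 genes, of which 47.8% were higher. In the fit of all probe sets (limma, Benjamini-Hochberg adjustment), 0 of the 22 probe sets passed an adjusted p of 0.05, beside 0.00442% (1 probe set) of all. At an unadjusted p below 0.05, 5 of the 22 were higher in Alb/AEG-1 tumours and 1 was lower, beside 3.68% and 4.38% of all probe sets. By main probe sets these were 3 of 10 genes higher and 0 lower, beside 3.86% and 4.47% of all genes. The 3 Alb/AEG-1 values all lay above the 3 wild-type values in 6 of the 22 probe sets and all lay below in 1, beside 6.28% and 8.38% of all probe sets. Dropping 1 array at a time gave 2 (no wild-type replicate 3) to 7 (no wild-type replicate 1) probe sets higher at an unadjusted p below 0.05, beside 2.65% and 5.64% of all probe sets in the same 2 fits. By main probe sets it gave 1 to 4 genes, Mcm6 in each of the 6 fits, and 1 gene with either wild-type replicate 3 or Alb/AEG-1 replicate 1 dropped. Over the 6 fits, 2.49% to 5.64% of all probe sets were higher at that threshold. The 10 genes were chosen with earlier results of these data known, so their shared direction is given as a description. In bulk tumour RNA, fewer cells of a type and less RNA per cell cannot be told apart.

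**Figure D1:**
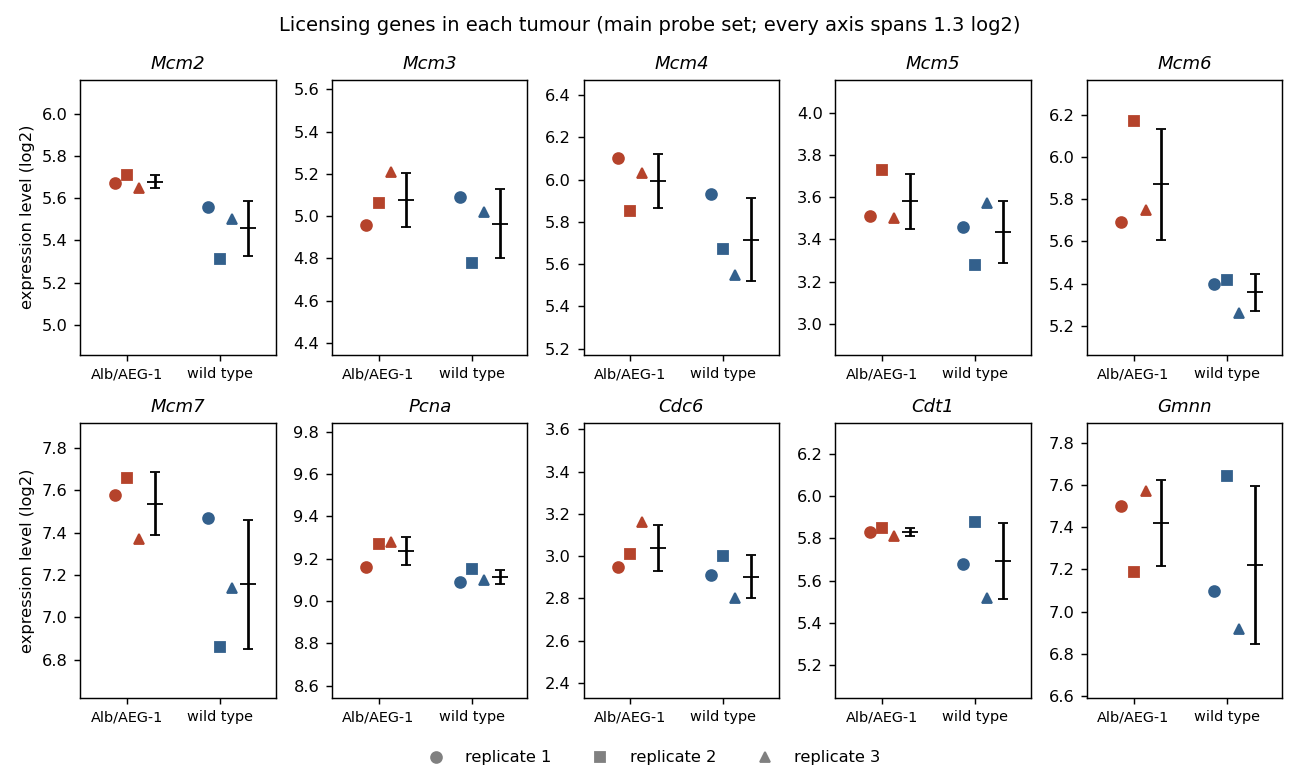
Log2 expression level of each licensing gene (main probe set) in every tumour, Alb/AEG-1 left and wild type right; symbols mark the replicates and black bars the mean ± SD of 3 arrays. Every vertical axis spans 1.3 log2. Mcm2, Mcm6 and Pcna have no overlap between the groups, while wild-type replicate 2 is high for Gmnn and Cdt1 and low for Mcm7.

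Mcm6 had the largest difference among the helicase genes. It encodes a subunit of the MCM ring. Its main probe set (1416251_at) was at 5.69, 6.17 and 5.75 in Alb/AEG-1 tumours, against 5.40, 5.42 and 5.26 in wild-type tumours. All Alb/AEG-1 values were above all wild-type values, and Alb/AEG-1 replicate 2 stood highest. The means were 5.87 ± 0.26 in Alb/AEG-1 and 5.36 ± 0.09 in wild-type tumours (SD, n = 3 each), a difference of 0.51 ± 0.14 log2 (SE, 1.42-fold; limma, adjusted p = 0.596). The other Mcm6 probe set (1438852_x_at, a type that may also bind related transcripts) was at 4.45, 4.77 and 4.56 in Alb/AEG-1 tumours, against 4.08, 3.34 and 3.89 in wild-type tumours. Its groups did not overlap either, and it differed by 0.82 ± 0.19 log2 (limma, adjusted p = 0.596). With Alb/AEG-1 replicate 2 left out, the difference of the main probe set was 0.36, the lowest of the 6 fits that each dropped an array, and its unadjusted p stayed below 0.05 in all 6.

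Mcm2, another ring subunit and a substrate of the kinase that fires origins, also separated the groups. Its main probe set (1434079_s_at) was at 5.67, 5.71 and 5.65 in Alb/AEG-1 tumours, against 5.56, 5.31 and 5.50 in wild-type tumours. The Alb/AEG-1 values were close together and lay just above the highest wild-type value. The difference was 0.22 ± 0.09 log2 (SE; limma, adjusted p = 0.616), and 0.15 with wild-type replicate 2 left out. The other probe set (1448777_at) was at 4.91, 5.16 and 4.91 in Alb/AEG-1 tumours, against 4.67, 4.90 and 4.31 in wild-type tumours. Its groups did not overlap, and the difference was 0.37 ± 0.16 log2 (limma, adjusted p = 0.617), 0.21 with wild-type replicate 3 left out.

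Mcm7 gave different sizes by probe set. Mcm7 encodes a ring subunit that, with MCM4 and MCM6, carries the core unwinding activity. Its main probe set (1438320_s_at) was at 7.58, 7.66 and 7.37 in Alb/AEG-1 tumours, against 7.47, 6.86 and 7.14 in wild-type tumours. The groups overlapped, and wild-type replicate 2 was lowest. The difference was 0.38 ± 0.16 log2 (limma, adjusted p = 0.617), 0.23 once wild-type replicate 2 was left out. It was 0.26 with a term for the range of animal numbers, which is described below. The other probe sets differed by 0.27, 0.12 and 0.07 log2, with overlapping groups and 95% intervals that included 0.

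Mcm4 was at 6.10, 5.85 and 6.03 in Alb/AEG-1 tumours, against 5.93, 5.67 and 5.55 in wild-type tumours. Only wild-type replicate 1 reached into the Alb/AEG-1 range, and the difference was 0.28 ± 0.12 log2 (limma, adjusted p = 0.618). Its second probe set differed by 0.37 ± 0.19 log2 with a wild-type SD of 0.42, and by 0.15 with wild-type replicate 2 left out. Both probe sets had a 95% interval that included 0.

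Mcm3 and Mcm5, which encode neighbouring subunits of the ring (MCM5 forms its gate with MCM2), differed least among the helicase genes. Mcm3 was at 4.96, 5.06 and 5.21 in Alb/AEG-1 tumours, against 5.09, 4.78 and 5.02 in wild-type tumours by its main probe set. The groups overlapped, and the difference of 0.11 ± 0.11 log2 (95% interval -0.15 to 0.38; limma, adjusted p = 0.772) was within the spread, and 0.02 with wild-type replicate 2 left out. The 5 Mcm3 probe sets disagreed. Probe set 1426653_at was higher at 4.91, 4.76 and 4.91 in Alb/AEG-1 tumours, against 4.71, 4.68 and 4.69 in wild-type tumours, a difference of 0.16 ± 0.08 log2 (limma, adjusted p = 0.634). Probe set 1420029_at was lower at 2.77, 2.93 and 2.83 in Alb/AEG-1 tumours, against 3.11, 3.10 and 3.23 in wild-type tumours, a difference of -0.30 ± 0.09 log2 (limma, adjusted p = 0.596). The other 2 probe sets differed by 0.06 and 0.28 log2, with overlapping groups, and by -0.12 and 0.15 once wild-type replicate 3 was left out. Probe set 1420029_at lies near the bottom of the signal scale, at the 4.96th percentile of all, and is the only one of the 22 with a lower mean in Alb/AEG-1 tumours. Its groups did not overlap. With single arrays left out its difference lay between -0.35 and -0.26, and its unadjusted limma p stayed below 0.05 in every such fit.

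Mcm5 has a single probe set, which was at 3.51, 3.73 and 3.50 in Alb/AEG-1 tumours, against 3.46, 3.28 and 3.57 in wild-type tumours. The values overlapped, with a difference of 0.15 ± 0.11 log2 (95% interval -0.11 to 0.40; limma, adjusted p = 0.713), which was 0.07 with wild-type replicate 2 left out. This probe set was also dim, at the 12.8th percentile. Of the 10 main probe sets, 6 lay below the median level of all probe sets, and a dim probe set may understate a difference.

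**Figure D2:**
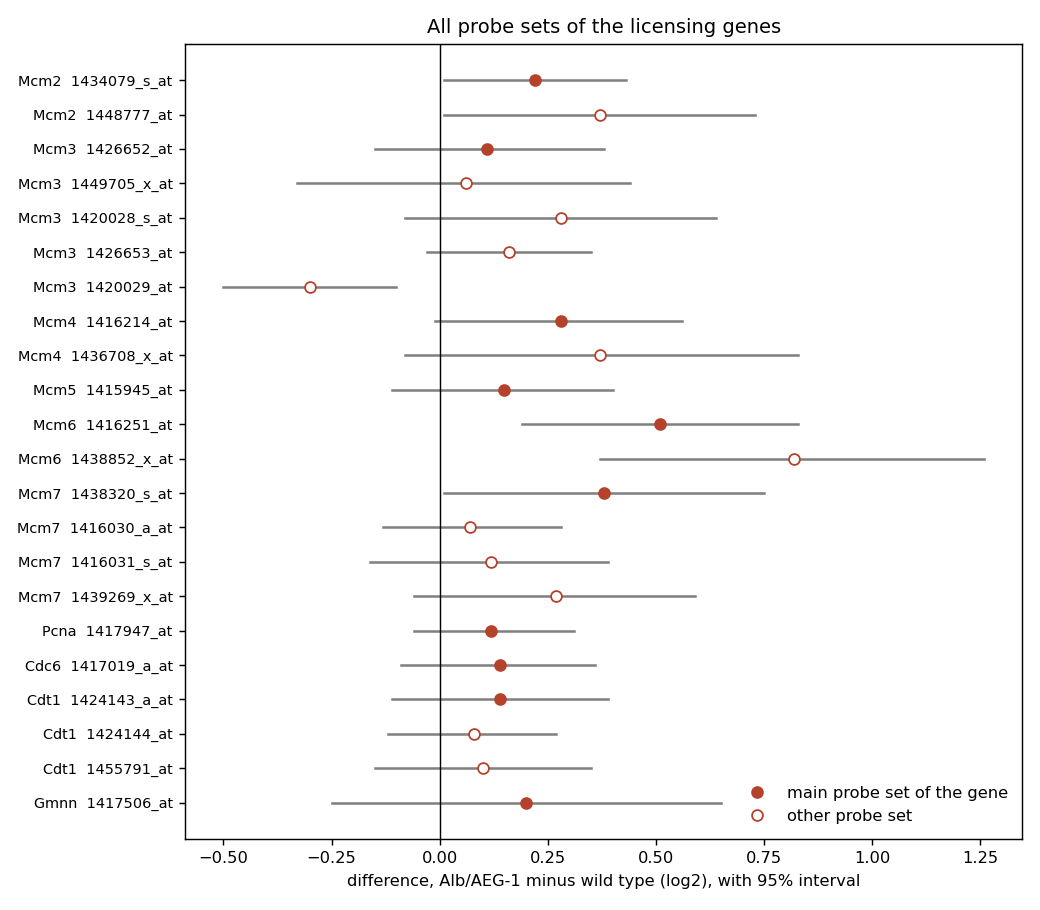
Difference in log2 level, Alb/AEG-1 minus wild type, for all 22 probe sets, with 95% intervals from limma; filled points are the main probe set of each gene. Of the 22 points 21 lie above 0, the exception being Mcm3 probe set 1420029_at at -0.30, and both Mcm6 probe sets lie farthest to the right.

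The loading factors and their inhibitor had 95% intervals of the difference that all included 0. Cdt1, the factor that brings the MCM ring to origins, was at 5.83, 5.85 and 5.81 in Alb/AEG-1 tumours, against 5.68, 5.88 and 5.52 in wild-type tumours. The Alb/AEG-1 values lay inside the wild-type range, with a difference of 0.14 ± 0.11 log2 (95% interval -0.11 to 0.39; limma, adjusted p = 0.716), and the other 2 probe sets differed by 0.08 and 0.10. The main difference was 0.05 once wild-type replicate 3 was left out and 0.23 once replicate 2 was. Cdc6, the ATPase of the loading step, was at 2.95, 3.01 and 3.16 in Alb/AEG-1 tumours, against 2.91, 3.0 and 2.80 in wild-type tumours. Its probe set was at the 4.65th percentile of signal, and the difference of 0.14 ± 0.10 log2 (95% interval -0.09 to 0.36; limma, adjusted p = 0.693) is on a scale where little signal was measured. It was 0.07 with Alb/AEG-1 replicate 3 left out.

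Gmnn had the widest spread of the loading genes. It was at 7.5, 7.19 and 7.57 in Alb/AEG-1 tumours, against 7.10, 7.64 and 6.92 in wild-type tumours. The highest of all 6 values was a wild-type one, replicate 2. The difference was 0.20 ± 0.19 log2 (95% interval -0.25 to 0.65; limma, adjusted p = 0.768), 0.41 once wild-type replicate 2 was left out and 0.05 once replicate 3 was.

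Pcna encodes the clamp that also serves repair, and its probe set was bright, at the 88.8th percentile. It was at 9.16, 9.27 and 9.28 in Alb/AEG-1 tumours, against 9.09, 9.15 and 9.10 in wild-type tumours. The lowest Alb/AEG-1 value was just above the highest wild-type value, and the difference was 0.12 ± 0.08 log2 (95% interval -0.06 to 0.31, 1.09-fold; limma, adjusted p = 0.68).

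Among wild-type tumours, most helicase genes and the other licensing genes were lowest in different tumours. By main probe sets, wild-type replicate 2 had the lowest wild-type value of Mcm2, Mcm3, Mcm5 and Mcm7, at 0.25, 0.24, 0.23 and 0.49 log2 below the gene's mean over the 6 arrays. Mcm4 and Mcm6 were lowest in wild-type replicate 3. Over all probe sets, wild-type replicate 2 was the lowest wild-type array in 32.2%. It had the highest wild-type value of Pcna, Cdc6, Cdt1 and Gmnn. The pattern was looked at after the values were seen, and other probe sets of Mcm2 and Mcm6 ranked these tumours differently. Averaged over Mcm2 to Mcm7, the levels were 5.58, 5.70 and 5.59 in Alb/AEG-1 tumours, against 5.48, 5.22 and 5.34 in wild-type tumours. Averaged over Pcna, Cdc6, Cdt1 and Gmnn, they were 6.36, 6.33 and 6.46 in Alb/AEG-1 tumours, against 6.20, 6.42 and 6.09 in wild-type tumours. The helicase averages kept the groups apart and the averages of the other 4 genes overlapped, but no test compared the 2 sets of genes.

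**Figure D3:**
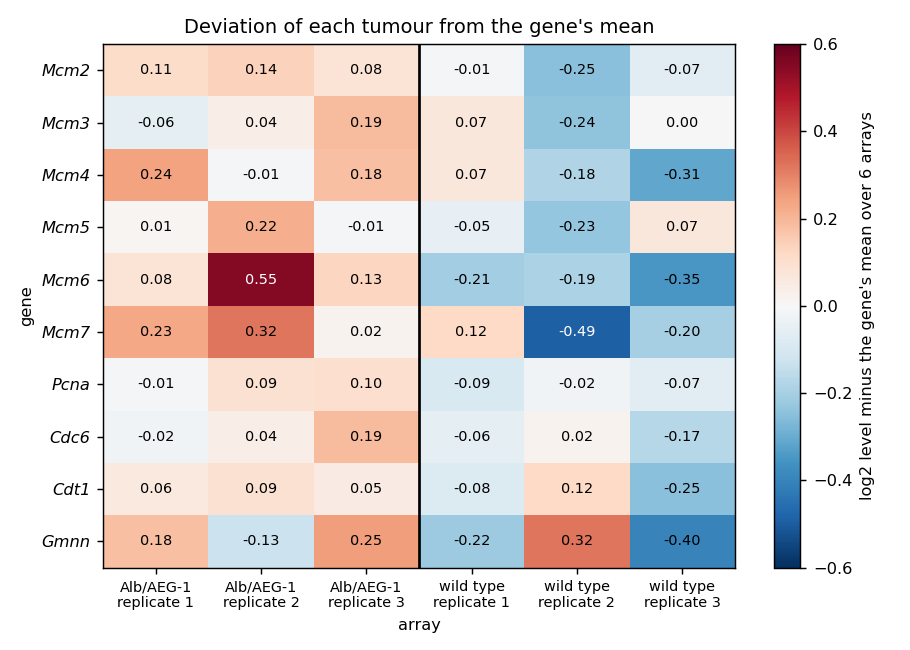
Log2 level of each licensing gene minus its own mean over the 6 arrays, with Alb/AEG-1 arrays left of the line and wild-type arrays right. Wild-type replicate 2 is blue for the Mcm genes (-0.49 for Mcm7) and red for Gmnn (0.32), and Alb/AEG-1 replicate 2 is darkest red for Mcm6 (0.55). Wild-type replicate 3 is a darker blue than replicate 2 for Mcm4 (-0.31) and Mcm6 (-0.35).

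The animal numbers in the titles fall into a lower range (Alb/AEG-1 replicates 1 and 2 and wild-type replicate 1) and a higher range (Alb/AEG-1 replicate 3 and wild-type replicates 2 and 3). The labels do not call these batches. With the range as a term, Mcm6 differed by 0.47 log2 (limma, adjusted p = 0.728), Mcm2 by 0.19 and Mcm7 by 0.26. The main Mcm7 probe set was higher on every lower-number array (7.58, 7.66 and 7.47) than on every higher-number array (7.37, 6.86 and 7.14). The ranges hold the genotypes in unequal numbers, so the Mcm7 difference cannot be fully told apart from the range. Of the 10 main probe sets 1, Mcm6, kept an unadjusted limma p below 0.05. The share of all genes at that threshold in this fit is not given here. Within these ranges, lower numbers first, Mcm6 differed by 0.53 and 0.41, Mcm2 by 0.13 and 0.24, Mcm7 by 0.15 and 0.37 and Mcm4 by 0.04 and 0.42. The difference was above 0 within both ranges for 9 of the 10 genes, and Mcm3 was the exception with -0.08 among lower and 0.31 among higher numbers. Some of these values were near 0, and the share of all genes higher within both ranges is not given here. Each range rests on 1 array of one genotype, wild-type replicate 1 among lower and Alb/AEG-1 replicate 3 among higher numbers.

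Other genes of the replication machinery were measured from lists of steps before, beside and after loading. Of those measured, 71 genes had a higher and 35 a lower mean in Alb/AEG-1 tumours, with a median of 0.08 log2. In limma 0 passed an adjusted p of 0.05, while 12 were higher and 1 was lower at an unadjusted p below 0.05, beside 3.86% and 4.47% of all genes. With wild-type replicate 3 dropped, those counts were 7 and 3, beside 2.65% of all probe sets higher in that fit. In the origin recognition complex, 5 of 7 were higher (median 0.10), and Orc3 and Orc4 differed by 0.26 ± 0.11 and 0.25 ± 0.11 log2 (limma, adjusted p = 0.616 and 0.618). Among the relatives and partners of the ring, Mcmbp, an MCM-binding protein, differed by -0.08 ± 0.10 and Mcm10, a replication initiation factor, by -0.11 ± 0.33 log2, and 1 of 3 genes was higher.

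Dbf4 and Cdc45 act on the loaded ring and had mean differences of opposite sign, neither past an adjusted p of 0.05. Dbf4, the activating subunit of the CDC7 kinase that phosphorylates the ring, was at 4.93, 4.77 and 4.93 in Alb/AEG-1 tumours, against 4.57, 4.68 and 4.58 in wild-type tumours (difference 0.27 ± 0.09 log2; limma, adjusted p = 0.601). Cdc45, a part of the active helicase, was at 5.16, 5.21 and 5.33 in Alb/AEG-1 tumours, against 5.43, 5.28 and 5.6 in wild-type tumours (difference -0.20 ± 0.11 log2; limma, adjusted p = 0.638). Of the 9 genes of helicase activation and origin firing, 6 were higher, with a median of 0.10.

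Polymerase and primase genes were higher in 11 of 12 cases, with a median of 0.14 log2. Pold4, the small accessory subunit of polymerase delta, was at 7.69, 8.54 and 8.07 in Alb/AEG-1 tumours, against 7.45, 7.30 and 6.92 in wild-type tumours. Its groups did not overlap, and the difference of 0.88 ± 0.22 log2 (1.84-fold; limma, adjusted p = 0.596) was larger than that of any licensing gene by its main probe set. Prim1, the catalytic primase subunit, differed by 0.33 ± 0.16 log2. Among clamp loading, single-strand binding and Okazaki fragment genes 11 of 13 were higher, with Rpa3 at 0.33 ± 0.12 and the clamp loader subunit gene Rfc4 at 0.32 ± 0.14 log2.

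The regulators of S-phase entry were mixed. Of 10 E2F and pocket protein genes 6 were higher (median 0.04), with the retinoblastoma relatives Rbl1 at 0.28 ± 0.12 and Rbl2 at -0.24 ± 0.13 log2. Of 17 cyclin, kinase and inhibitor genes of the G1/S step 9 were higher (median 0.03, range -0.18 to 1.0). The cyclin genes Ccna2 (0.44 ± 0.11) and Ccnd1 (0.46 ± 0.13) had the smallest p-values there, each with adjusted p = 0.596 in limma. Of 10 ubiquitin ligase genes that act in the turnover of CDT1 and geminin 6 were higher (median 0.06). Fbxo31, an F-box protein, differed by -0.23 ± 0.10 (limma, adjusted p = 0.618) and Cdc20, an activator of the anaphase-promoting complex, by -0.16 ± 0.09 log2.

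Nucleotide supply genes were higher in 5 of 9 cases (median 0.03), with Dut, the dUTPase, at 0.36 ± 0.11 and Cad, the entry enzyme of pyrimidine synthesis, at 0.43 ± 0.16 log2. Fork protection and checkpoint genes were higher in 5 of 9 (median 0.09), with the clamp gene Rad1 at 0.33 ± 0.11 and the kinase gene Atr at 0.14 ± 0.08. Chromatin assembly genes were higher in 6 of 7 (median 0.12), with the histone chaperone gene Asf1a at 0.19 ± 0.09 and the helicase gene Hells at 0.22 ± 0.11 log2.

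**Figure D4:**
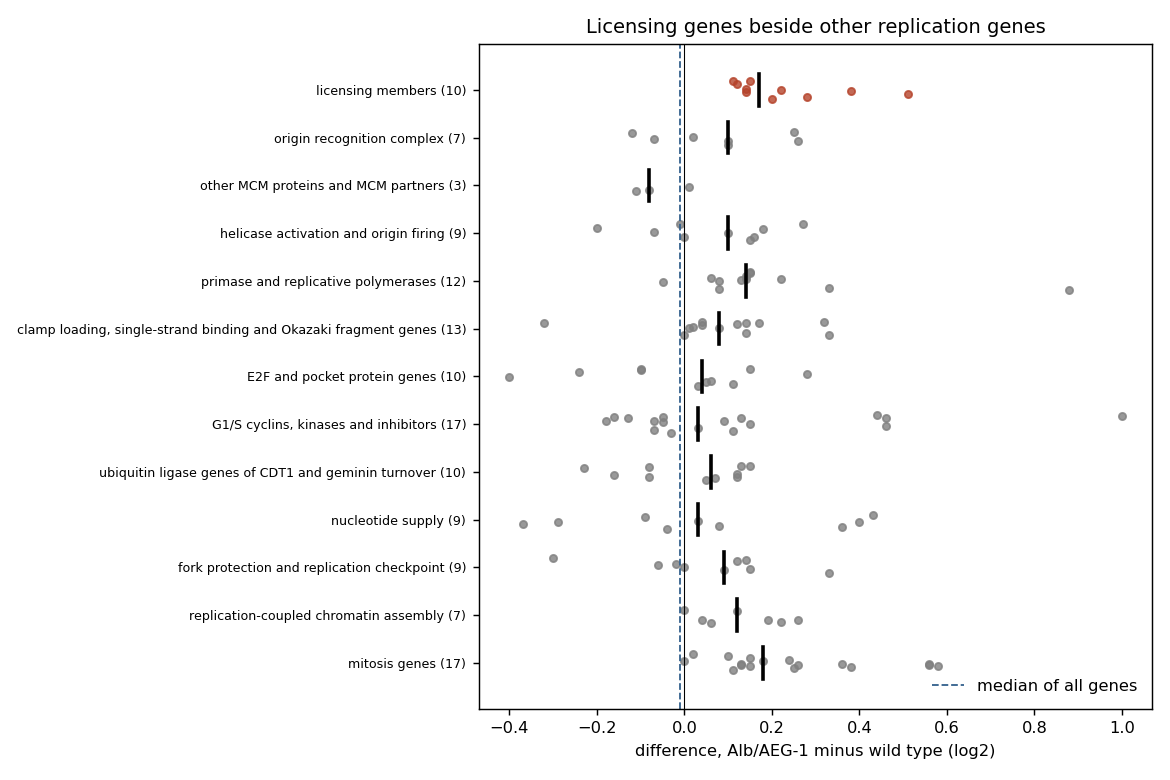
Difference in log2 level, Alb/AEG-1 minus wild type, for each gene of the licensing set (red) and of other replication and mitosis lists (grey), with the number measured in brackets; black ticks are list medians and the dashed line the median of all genes (-0.01). The licensing genes lie between 0.11 and 0.51, and most list medians lie between 0 and 0.2, with that of the MCM partners at -0.08.

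Mitosis genes were on average highest in the tumour of Alb/AEG-1 replicate 2, which also had the highest Mcm6. Of 17 mitosis genes 16 were higher, with a median of 0.18 log2, and 3 of them (Mki67, Top2a and Birc5) at an unadjusted limma p below 0.05, beside 3.86% of all genes. Their mean levels were 4.20, 4.64 and 4.30 in Alb/AEG-1 tumours, against 4.16, 4.16 and 4.09 in wild-type tumours, and that tumour stood apart from the other Alb/AEG-1 tumours. Mki67, the proliferation antigen, differed by 0.56 ± 0.23 log2 and by 0.29 without that array. Top2a, the topoisomerase of dividing cells, differed by 0.56 ± 0.22 and by 0.28 without it. Birc5, which encodes the division protein survivin, differed by 0.58 ± 0.22 and by 0.35 without it. Cdk1, the mitotic kinase, differed by 0.24 ± 0.15 and by 0.11 without it.

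Markers of cell types were read beside these values. Hepatocyte markers were bright on every array, with mean levels of 13.68 to 13.71 in Alb/AEG-1 and 13.65 to 13.70 in wild-type tumours, and 4 of 8 were higher, with 1 (Ahsg) at an unadjusted limma p below 0.05. They lay at the top of the signal scale, at the 99.4th to 100th percentile, so their similar means do not measure the share of hepatocytes. All 12 macrophage and Kupffer cell markers were higher in Alb/AEG-1 tumours, 5 of them (C1qb, C1qc, Cd5l, Mpeg1 and Aif1) at an unadjusted limma p below 0.05, beside 3.86% of all genes. Their array means were 7.30 to 7.89 in Alb/AEG-1 and 6.93 to 7.34 in wild-type tumours. Their median difference was 0.05 log2 among lower and 0.87 among higher animal numbers, while that of Mcm2 to Mcm7 was 0.14 and 0.34. Of 11 T and NK cell markers 2 were higher and 9 lower, 2 of these (Cd5 at -0.37 and Gzmb at -0.29 log2) at an unadjusted limma p below 0.05, beside 4.47% of all genes, with array means of 4.33 to 4.53 in Alb/AEG-1 and 4.49 to 4.65 in wild-type tumours. Of 7 B and plasma cell markers 3 were higher, 1 (Jchain) at that threshold, with array means of 5.45 to 5.68 in Alb/AEG-1 and 5.44 to 5.48 in wild-type tumours. Of 7 neutrophil markers 4 were lower, 2 (Mpo at -0.35 and Csf3r at -0.28 log2) at that threshold, and of 8 endothelial markers 1 (Lyve1) was higher at it. The array means of neutrophil, endothelial, stellate, cholangiocyte and erythroid markers overlapped between the groups. The scale holds no value of 0, so absence of a marker cannot be read from it, and the part of these cells in the licensing differences was not tested.

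**Figure D5:**
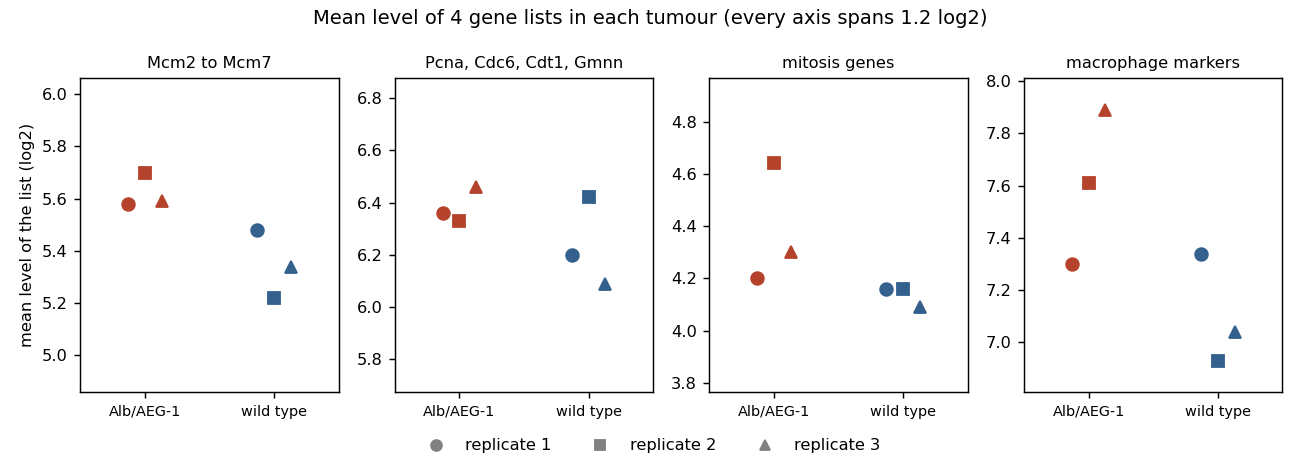
Mean log2 level per tumour of Mcm2 to Mcm7, of Pcna, Cdc6, Cdt1 and Gmnn, of 17 mitosis genes and of 12 macrophage markers, with Alb/AEG-1 left and wild type right and symbols for the replicates. Every axis spans 1.2 log2. The Mcm means (5.58 to 5.70 in Alb/AEG-1 tumours against 5.22 to 5.48 in wild-type tumours) do not overlap. The mitosis means do not overlap either and are led by Alb/AEG-1 replicate 2 (4.64), while the macrophage means overlap.

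Genes outside the set whose levels most resembled the mean of Mcm2 to Mcm7 were sought among 7011 genes with a signal at or above the median. The 5 with the highest Pearson correlation over the 6 arrays were Cttn (r = 0.998), which encodes the actin-binding protein cortactin, Nfe2l2 (r = 0.995), a transcription factor of the antioxidant response, Tubb6 (r = 0.994), a tubulin, Trim44 (r = 0.983) and the Golgi GTPase gene Rab6a (r = 0.983). They are the top of a long list over 6 points that share one group difference, so they are a description only. For their deviations from the group means, r was 0.992, 0.985, 0.982, 0.944 and 0.945. Tubb6 was 0.67 ± 0.16 log2 higher in Alb/AEG-1 tumours, with no overlap (limma, adjusted p = 0.596), and the other 4 genes were 0.21 to 0.28 higher.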

How the data were processed

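Total RNA of 6 liver tumours was labelled with biotin from 5 µg each and hybridised, per the labels' protocols, to Affymetrix mouse arrays. The authors deposited log2 expression levels per probe set, made with RMA (background correction, quantile normalization and summarizing of probes), per the submitters' processing notes, which state no version. RMA hides a shift shared by most genes. Array medians lay between 5.82 and 5.84 and array pairs correlated at 0.987 to 0.993 over probe sets. The number of arrays limits the precision.

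From the 22690 probe sets, 64 controls were left out. Symbols came from the platform annotation, updated through gene IDs against RefSeq GRCm38.p6 (20351 of 20380 IDs found). Probe sets with several symbols (691) or none (1555) stayed in the fit and were not named. Groups came from the genotype labels and replicate numbers from accession order. All probe sets entered 1 model of genotype, whose coefficient is Alb/AEG-1 minus wild type, fitted by lmFit and eBayes of limma 3.58.1 (R 4.3.3; 7.53 degrees of freedom, 2-sided). Plots used matplotlib 3.10.9.

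The members and lists were chosen with earlier results of these data known. Named were all members, the 2 genes of smallest p in each of the other replication lists, Mki67, Top2a and Cdk1, and the 5 genes most like the Mcm mean. Birc5, Mtdh, Cdkn2b, the cyclin genes beside Ccna2 and Ccnd1, and the cell type markers were named after their values were seen. Alternatives were median centring, quantile normalization, a variance trend, leaving out dim or x_at and s_at probe sets, gene means, the animal number range as a term and leaving out each array.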

Additional observations from a re-analysis of the deposited data

How the results depend on the processing

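The 10 licensing genes kept their direction in all 124 alternative values, with 0 past an adjusted p of 0.05 in limma. Each value is that of 1 probe set per gene or of the gene mean. The Mcm3 probe set 1420029_at (-0.30 in the main fit) therefore does not count there on its own. With single arrays left out, 20 or 21 of the 22 probe sets were higher. Across the 124 values, Mcm6 lay between 0.36 and 0.66 log2, Mcm7 between 0.07 and 0.53 and Mcm3 between 0.02 and 0.18. The 3 genes higher at an unadjusted p below 0.05 (Mcm2, Mcm6 and Mcm7) became 1 of 10 with a term for the range of animal numbers and 0 of the 4 left without dim probe sets, which removes Mcm2, Mcm3, Mcm5, Mcm6, Cdc6 and Cdt1. They became 2 with a variance trend, which loses Mcm2, and 2 with each of quantile normalization, gene means and the omission of x_at and s_at probe sets, which lose Mcm7. Leaving out single arrays gave 1 to 4 genes, with 1 (Mcm6) without wild-type replicate 3 and 1 (Mcm6) without Alb/AEG-1 replicate 1. Mcm6 was among them in each of these 6 fits. In the same 6 fits, 2.49% to 5.64% of all probe sets were higher at that threshold. The shares under the other settings are not given here. Over all probe sets the 1 past adjusted p 0.05 became 2 with a variance trend, 2 with gene means and 0 with the range term, and 0 to 1 without single arrays. For the other replication genes, the 12 higher at an unadjusted p below 0.05 became 5 of the 60 left without dim probe sets, and 7 (without wild-type replicate 3) to 15 (without wild-type replicate 1). The 1 lower became 2 with quantile normalization and with gene means, 0 with the trend, median centring, the range term and without dim probe sets, and 0 to 3 without single arrays (3 without wild-type replicate 3, 3 without Alb/AEG-1 replicate 3). Their median of 0.08 was 0.04 with gene means. Apart from filters, which test fewer probe sets, and left-out arrays, the cause was not tested. No paired analysis was possible because replicate numbers come from accession order alone. Dim signal limits Mcm5, Cdc6 and the lower Mcm3 probe set.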

Other observations

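Probe sets of one gene did not agree on which wild-type tumour was lowest, a pattern looked at after the values were seen. Wild-type replicate 2 was the lowest wild-type array in 6 of the 8 Mcm probe sets of type x_at or s_at and in 5 of the 8 other Mcm probe sets. Over the whole array it was lowest in 34.7% of x_at and s_at probe sets and in 31.8% of the others. In the Mcm6 probe set 1438852_x_at that tumour was at 3.34, against 4.08 and 3.89 in the other wild-type tumours, while in 1416251_at it was the highest wild-type value at 5.42. In the Mcm2 probe set 1448777_at it was also the highest wild-type value (4.90), and in 1434079_s_at the lowest (5.31).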
